A study of Mus musculus with 4 samples.

Results

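The genes described here encode the mitochondrial respiratory chain, in the nucleus and in mitochondrial DNA. They were taken by name: rows whose symbol starts with Nduf, Sdha, Sdhb, Sdhc, Sdhd, Uqcr, Atp5, Cox4i, Cox5, Cox6, Cox7, Cox8, mt-Nd, mt-Co, mt-Cytb or mt-Atp, with no pseudogene suffix and at least 100 counts over the 4 libraries together. Of the 55401 rows of the table, 129 had such a name and 100 met the rule. Of these 100, 90 are nuclear and 10 are mitochondrial. The nuclear genes comprise 78 subunits (36 of complex I, 4 of complex II, 8 of complex III, 13 of complex IV and 17 of complex V) and 12 assembly factors named Ndufaf or Sdhaf. A pseudogene suffix removed 14 rows and the count minimum removed 15, of which 3 are mitochondrial. The nearest rows below the minimum were mt-Nd4l (69 counts), mt-Nd3 (67) and Cox6b2 (61), and the nearest above it were Ndufb4 (258), mt-Atp6 (385) and Sdhaf4 (491). All 100 genes passed the filter on low counts and were tested.

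Poly(A) RNA was sequenced from spleen B cells of C57BL/6 mice, purified with anti-CD43 microbeads and activated in culture with anti-CD40 (1 µg/ml) and anti-IgM (10 µg/ml) for 36 h. Both genotypes received the same activation. Wild-type mice gave 2 libraries, and 2 came from animals labelled as a conditional knockout (cKO) of Adar1 in B cells, the gene of an RNA-editing enzyme whose current symbol is Adar. The sources used here give neither the driver of the deletion nor the animals' age, nor whether each library came from its own mouse.

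The respiratory chain sits in the inner mitochondrial membrane. Complexes I and II take electrons from NADH and succinate, complex III passes them to cytochrome c, complex IV gives them to oxygen, and complex V uses the proton gradient to make ATP. Complexes I, III, IV and V are mosaics of nuclear and mitochondrial gene products, whereas complex II is wholly nuclear. Mitochondrial mRNAs are cut from long transcripts of the circular genome, and most of them carry short poly(A) tails. Activated B cells enlarge and divide, and mitochondrial respiration is one of the processes that activation engages.

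Total counts per library lay between 17327480 and 19669651. Adar, the gene named by the labels, was at 137 and 149.97 CPM (read counts scaled to a common library total) in wild type and at 218 and 233 CPM in the cKO libraries, a log2 change of 0.65 ± 0.063 (SE). The count shows no loss of Adar RNA, but the deleted exons are not given, so it cannot check the label. The term cKO-labelled is used below and directions follow the labels. Ribosomal RNA rows took 0.525% of counts in wild-type library 2 and 0.0947% to 0.125% in the other 3. The summed level of 6 B-cell markers was 4420 and 4414 CPM in wild type and 3360 and 3456 CPM in the cKO-labelled pair, with 5 of the 6 called lower. Summed macrophage markers were at 127 and 123 CPM in wild type and at 45.6 and 54.8 CPM in the other genotype, with 1 of 4 tested markers called lower (Adgre1, -1.63) and Lyz2 at 0.30. Summed dendritic-cell markers were at 58.1 and 57.0 CPM and at 108 and 113 CPM, with 3 of 4 called higher. Plasma-cell markers were at 606 and 620 CPM and at 700 and 718 CPM. Of these, 3 of 5 were called higher and 1 had a negative change (-0.53, not called). T-cell markers stood at 163 and 156 CPM and at 127 and 136 CPM, NK-cell markers at 1.44 and 1.68 CPM and at 5.22 and 4.58 CPM, and neutrophil markers at 1.10 and 0.712 CPM and at 2.167 and 3.32 CPM. Of the neutrophil markers 1 of 2 tested was called higher and Ly6g had no count. Erythroid markers were at 0.866 and 1.47 CPM in wild type and 3.83 and 4.01 CPM in the cKO-labelled pair, with 2 of 3 tested called higher. Over all genes tested, 12.2% were called higher and 9.54% lower. The part of cell composition in the changes below was not tested, and fewer cells of a type and less RNA per cell cannot be told apart in such libraries.

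Part of the mitochondrial genome has a near-identical copy in the nucleus, and the settings for reads that align to both are not known. On build GRCm38 the copy lies on chromosome 1, minus strand, from 24611535 to 24616197, as 7 annotated pseudogenes. Over 4149 aligned bases the copies differed from the mitochondrial genes at 7. The paired stretches are shown because a read from the lower-case bases has 2 equal places to align, and capitals mark the differing bases. The mt-Nd3 stretch holds 1 difference, T3C (position 3 of the gene, mitochondrial base first), the mt-Co2 stretch holds none, and the other 6 lie within the first bases of the copy of mt-Co1.
mt-Co1, chrMT:6381-6440, plus strand: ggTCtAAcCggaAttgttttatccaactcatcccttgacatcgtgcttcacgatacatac
Gm29216, chr1:24616138-24616197, minus strand: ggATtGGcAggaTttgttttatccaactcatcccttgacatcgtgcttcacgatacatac
mt-Co2, chrMT:7325-7384, plus strand: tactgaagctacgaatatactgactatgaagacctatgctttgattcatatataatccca
Gm28661, chr1:24615194-24615253, minus strand: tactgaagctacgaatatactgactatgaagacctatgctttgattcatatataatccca
mt-Nd3, chrMT:9459-9518, plus strand: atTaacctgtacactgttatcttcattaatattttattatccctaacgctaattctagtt
Gm28438, chr1:24613060-24613119, minus strand: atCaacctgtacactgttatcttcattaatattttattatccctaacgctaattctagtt
The share of a gene's 75-base stretches found in other annotated transcripts was 99.9% for mt-Co3, 99.5% for mt-Co2, 99.5% for mt-Atp6, 98.7% for mt-Nd4l and 97.8% for mt-Nd3. It was 61.5% for mt-Nd4, 39.8% for mt-Co1 and 5.71% for mt-Nd2. It was 0 for mt-Nd1, mt-Nd6 and mt-Cytb. The genes with nearly complete copies are those with few counts: mt-Co2 had 353, 409, 353 and 314 reads in wild-type libraries 1 and 2 and cKO-labelled libraries 1 and 2, and its copy Gm28661 had 153, 161, 118 and 110. Levels of mt-Co2, mt-Co3 and mt-Atp6 are therefore uncertain, although the part of the copies in their low counts was not tested. mt-Atp8 had 26 counts in all and shares no such stretch with an annotated transcript. It lies between mt-Co2 and mt-Atp6, and unannotated sequence between their copies was not searched, so mt-Atp8 may be copied too. The reason for its low count was not tested.

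Per length, the most abundant mRNAs of the chain were mitochondrial. The authors' FPKM values are counts scaled by exonic length and library total, so levels of different genes can be set roughly side by side. The exonic length can exceed a gene's longest transcript, which lowers its FPKM. It was 4237 against 1916 bases for Atp5b, but 1545 in both for mt-Co1. The ranks below depend on this, and its part in the medians was not tested. Mean FPKM over the 4 libraries was 5350 for mt-Co1 (the catalytic subunit of complex IV), 2673 for mt-Cytb (cytochrome b of complex III) and 2228 for mt-Nd1 (a membrane subunit of complex I). By these values the 7 highest of the 100 genes were all mitochondrial, ending with mt-Nd6 at 397 FPKM. Scaled by the longest transcript instead, Atp5b among other nuclear genes would stand above mt-Nd6. The nuclear genes with the highest level followed: Cox8a at 363, Atp5a1 at 362 and Atp5b at 357 FPKM. In complex I the median level was 1044 FPKM for the mitochondrial genes and 40.5 FPKM for the nuclear ones. In complex III, mt-Cytb at 2673 FPKM stood against a nuclear median of 85.6 FPKM. In complex IV the mitochondrial genes ran from 9.998 to 5350 FPKM, around a nuclear median of 113 FPKM, and their low end is the copied genes mt-Co2 and mt-Co3. In complex V, mt-Atp6 at 7.79 FPKM, also copied, lay below the nuclear median of 50.8 FPKM.

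**Figure D1:**
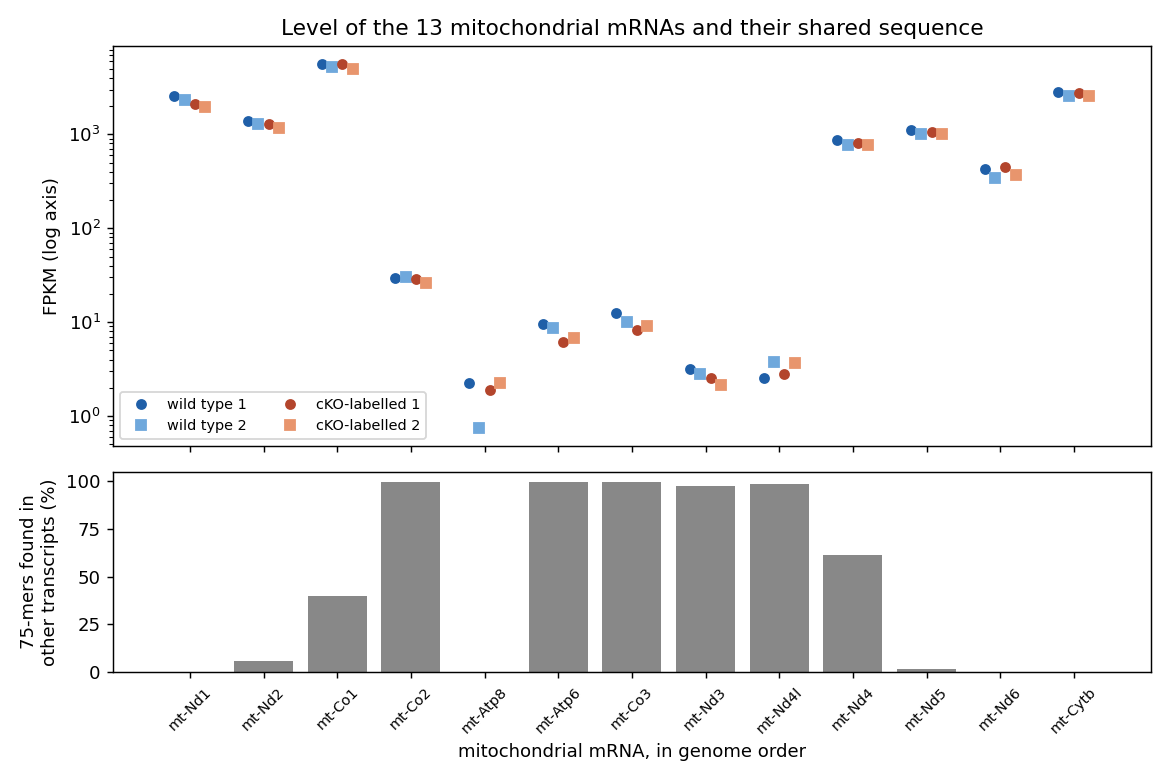
Level of the 13 mitochondrial mRNAs, in genome order, as the authors' FPKM per library (upper panel, log axis; blue wild type, red cKO-labelled), and the share of each gene's 75-base stretches found in other annotated transcripts (lower panel, %). The 7 mRNAs at 397 FPKM or more share between 0% and 61.5% of their stretches, and mt-Co2, mt-Atp6, mt-Co3, mt-Nd3 and mt-Nd4l, with shares of 97.8% to 99.9%, lie far below them.

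The comparison of cKO-labelled with wild-type libraries asked which of these genes changed. A gene is called at an adjusted p under 0.05 in the quasi-likelihood test of edgeR, with p adjusted by the Benjamini-Hochberg method over all 14180 genes tested. Of the 100 genes, 12 were called lower and 2 higher, where 21.7% of all genes tested were called, 9.54% lower and 12.2% higher. Small negative changes were more frequent: 71 of the 100 had a negative change against 51.1% of all genes tested, and 42 had both cKO-labelled libraries below both wild-type ones against 28.7%. Another 8 had both above, against 29.2%, and in 50 the genotypes overlapped. The median log2 change was -0.06 over the 100 genes and -0.0058 over all genes tested. The changes ran from -1.02 for Cox6a2 to 0.34 for Sdhaf4. The count of nuclear subunits called lower, 10, was 5 without wild-type library 1, 15 without wild-type library 2 and 6 with DESeq2. Of the 14 called genes, Cox6a2, Uqcrq, Atp5d and Atp5g1 were called in all 11 alternative analyses.

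**Figure D2:**
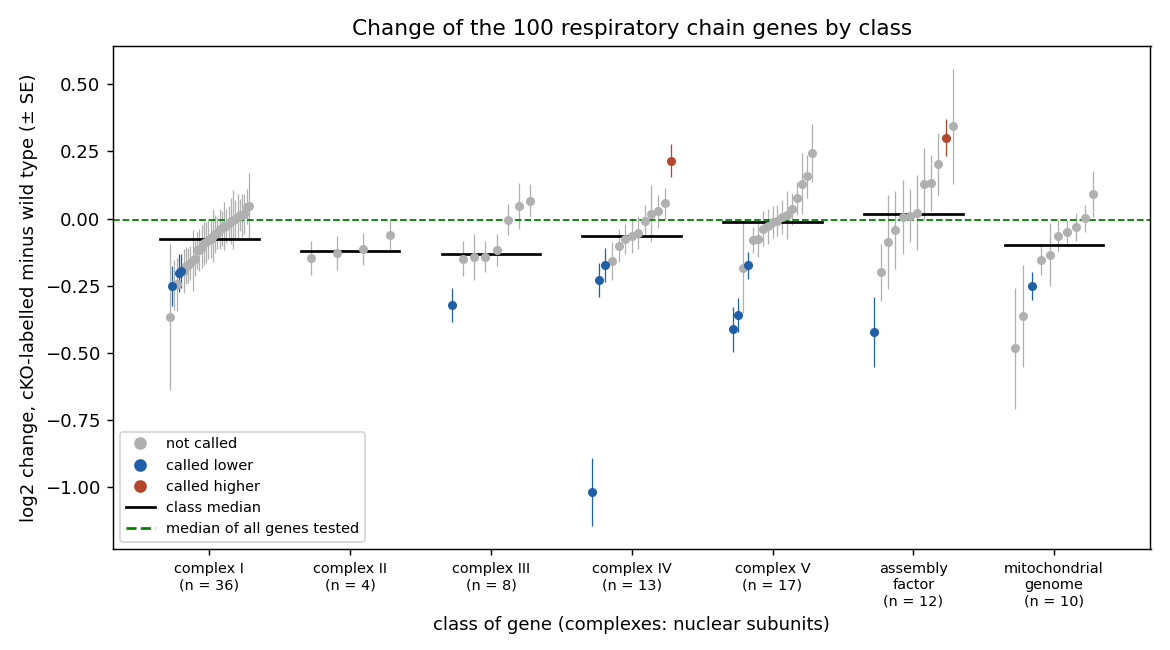
Log2 change of each of the 100 genes (cKO-labelled minus wild type, points, with SE as bars), grouped by complex for nuclear subunits, with assembly factors and the mitochondrial genome apart; black lines are class medians and the dashed line is the median of all genes tested. Most points lie slightly below 0, 12 are called lower and 2 higher, and Cox6a2 at -1.02 lies far below the rest.

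Most complex I genes had small negative changes, and 3 of the 36 nuclear subunits (8.33%) were called lower, against 9.54% of all genes tested. In 30 the change was negative, against 51.1% of all genes tested. In 15 both cKO-labelled libraries lay below both wild-type ones (28.7% of all genes tested), with the reverse in 0 (29.2%). The median change was -0.08, within a range of -0.37 to 0.05. None was called higher by edgeR (0 at an unadjusted p under 0.05) or by DESeq2, and DESeq2 called none lower. Ndufa6, an accessory subunit of the LYR protein family (chromosome 15, 82350140 to 82354322), had 66.2 and 58.1 CPM in wild type and 51.6 and 52.7 CPM in the cKO-labelled pair. Both cKO-labelled libraries were lower, and the change was -0.25 ± 0.076 (adjusted p = 0.0191). Ndufs7 and Ndufs8 carry iron-sulphur clusters on the path of electrons to ubiquinone. Ndufs7 (chromosome 10, 80249121 to 80256794) had 67.1 and 65.6 CPM in wild type and 55.4 and 59.9 CPM in the cKO-labelled pair, a change of -0.20 ± 0.070 (adjusted p = 0.0410). Ndufs8 (chromosome 19, 3908863 to 3912774) had 98.4 and 95.8 CPM in wild type and 83.6 and 85.9 CPM in the cKO-labelled pair, a change of -0.20 ± 0.062 (adjusted p = 0.0260). For both genes the genotypes did not overlap. With the GC trend removed, Ndufs7 was at -0.07 (adjusted p = 0.518) and Ndufs8 at -0.09 (0.336), and neither was called. Without wild-type library 1 the change was -0.16 for Ndufa6 (adjusted p = 0.309), -0.19 for Ndufs7 (0.179) and -0.18 for Ndufs8 (0.155). Without wild-type library 2 it was -0.23 for Ndufs7 (0.0934) and -0.22 for Ndufs8 (0.0636). Without cKO-labelled library 1 it was -0.24 for Ndufa6 (0.0606), -0.15 for Ndufs7 (0.247) and -0.18 for Ndufs8 (0.103). The complex I subunit with the highest level per length, Ndufa2, had 81.3 and 70.4 CPM in wild type and 64.7 and 76.2 CPM in the cKO-labelled pair. The genotypes overlapped, and the change was -0.11 ± 0.080 (adjusted p = 0.404). Ndufb4, with the most negative change of the class, had only 3.04 to 4.27 CPM (adjusted p = 0.394), and 35.2% of its 75-base stretches occur in other transcripts.

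Complex II, succinate dehydrogenase, is also an enzyme of the citric acid cycle. All 4 of its subunits had both cKO-labelled libraries below both wild-type ones, as did 28.7% of all genes tested. None passed the test by edgeR or DESeq2, with 1 at an unadjusted p under 0.05. The changes were -0.15 for Sdhb (the iron-sulphur subunit), -0.13 for Sdhc and -0.11 for Sdhd (both membrane anchors) and -0.06 for Sdha (the flavoprotein), with adjusted p between 0.110 and 0.517. Sdhd, with the highest level per length, had 144 and 151 CPM in wild type and 138 and 136 CPM in the cKO-labelled pair (SE 0.059, adjusted p = 0.195). The assembly factors of this complex moved in different directions. Sdhaf2, which helps attach the flavin to Sdha (chromosome 19, 10500534 to 10526142), rose from 61.7 and 69.4 CPM to 80.0 and 81.7 CPM, a change of 0.30 ± 0.069 (adjusted p = 0.00251). Sdhaf1, which helps insert iron-sulphur clusters into Sdhb (chromosome 7, 30321406 to 30323895), fell from 19.4 and 17.6 CPM to 13.5 and 14.1 CPM, a change of -0.42 ± 0.13 (adjusted p = 0.0213). Neither gene's genotypes overlapped. The call of Sdhaf2 was lost without wild-type library 1 (adjusted p = 0.0974). That of Sdhaf1 was lost with DESeq2 and without wild-type library 1 or cKO-labelled library 1. Its change ran from -0.50 to -0.36 over the alternatives. In Sdhaf1, 68.7% of the 75-base stretches also lie in E130208F15Rik, which overlaps it on the opposite strand and had no count. Sdhaf4 had the highest change of the 100 genes, 0.34 ± 0.21, at 5.11 and 6.81 CPM in wild type and 6.55 and 8.65 CPM in the cKO-labelled pair. The genotypes overlapped and it was not called (adjusted p = 0.289). The 8 Ndufaf factors of complex I were not called, and the 12 assembly factors had a median change of 0.02.

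In complex III, 1 of 8 nuclear subunits (12.5%) was called lower, against 9.54% of all genes tested. None was called higher by edgeR (0 at an unadjusted p under 0.05) or DESeq2, and the median change was -0.13 (range -0.32 to 0.07). Uqcrq, a small subunit next to cytochrome b (chromosome 11, 53427922 to 53430831), had 198 and 177 CPM in wild type and 150.6 and 149 CPM in the cKO-labelled pair. Both cKO-labelled libraries were clearly below both wild-type ones, and the change was -0.32 ± 0.063 (adjusted p = 0.000516). Uqcr10, another small subunit and the nuclear complex III gene with the highest level per length, had 144 and 130.3 CPM in wild type and 118 and 129.6 CPM in the cKO-labelled pair. Its genotypes nearly touched, and the change was -0.15 ± 0.066 (adjusted p = 0.116).

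Complex IV, cytochrome c oxidase, held the largest change of the chain. Of its 13 nuclear genes, Ndufa4 included, 3 were called lower (23.1%) and 1 higher (7.69%), with a median change of -0.06. The shares over all genes tested were 9.54% lower and 12.2% higher. Cox6a2 encodes the isoform of subunit VIa that is characteristic of heart and skeletal muscle (chromosome 7, 128205435 to 128206387). Its read counts were 524 and 481 in wild type and 233 and 246 in the cKO-labelled pair, or 30.4, 24.5, 12.9 and 14.1 CPM in that order. It fell by 50.6%, a log2 change of -1.02 ± 0.13 (adjusted p = 1.95e-06). The common isoform Cox6a1 was far more abundant, at 215 and 211 CPM in wild type and 178 and 199 CPM in the cKO-labelled pair. Its change was -0.17 ± 0.062 (adjusted p = 0.0498), at the edge of the threshold, and the call was lost in 6 of 11 alternatives, among them without wild-type library 1 (0.142), wild-type library 2 (0.0848) or cKO-labelled library 1 (0.427). After removal of the trend with GC content, the change of Cox6a1 was -0.02 (adjusted p = 0.870).

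Cox7b, a small accessory subunit (chromosome X, 106015700 to 106022450), fell from 154 and 145 CPM to 132 and 122 CPM, a change of -0.23 ± 0.062 (adjusted p = 0.00947). Its call was lost without wild-type library 1 (adjusted p = 0.0894) or cKO-labelled library 2 (0.0893). Cox6c, another accessory subunit (chromosome 15, 35925886 to 35938246), was the one subunit called higher. It had 131 and 123 CPM in wild type and 153 and 142 CPM in the cKO-labelled pair, a change of 0.22 ± 0.062 (adjusted p = 0.0143), lost without wild-type library 2 (0.172) or cKO-labelled library 1 (0.124). The genotypes did not overlap for either gene. Other isoforms were not called. Cox7a2 had a change of -0.16 (adjusted p = 0.123), Cox6b1 of -0.10 (0.275), Cox8a of -0.08 (0.399), Cox4i1 of -0.06 (0.562), Ndufa4 of -0.05 and Cox7a2l, which takes part in joining complexes into supercomplexes, of 0.06 (0.569). The isoforms Cox4i2, Cox8b, Cox7b2 and Cox8c had no count in any library, and Cox7a1 and Ndufa4l2 had 36 and 15 counts in all.

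Complex V, ATP synthase, had 3 of 17 nuclear subunits called lower (17.6%, against 9.54% of all genes tested). None was called higher (by edgeR, with 1 at an unadjusted p under 0.05, or by DESeq2). The median change of the complex, -0.01, was close to that of all genes tested. The proton-carrying c subunit is encoded by 3 nuclear genes whose mature proteins are the same, and they had different changes. Atp5g1 (chromosome 11, 96068852 to 96075670) had 45.1 and 46.4 CPM in wild type and 32.8 and 35.9 CPM in the cKO-labelled pair, and both of the latter were lower. Its change was -0.41 ± 0.085 (adjusted p = 0.000876). Atp5g3, the most abundant of them, had 237 and 216 CPM in wild type and 232 and 245 CPM in the cKO-labelled pair, which overlapped (change 0.08, adjusted p = 0.439). Atp5g2 had 9.46 and 10.6 CPM in wild type and 9.38 and 8.31 CPM in the cKO-labelled pair (change -0.18, adjusted p = 0.506). The differences between these 3 changes were not tested.

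Atp5d encodes the delta subunit of the rotor's central stalk (chromosome 10, 80138632 to 80145818). It had 326 and 295 CPM in wild type and 231 and 253 CPM in the cKO-labelled pair, with no overlap, and the change was -0.36 ± 0.064 (adjusted p = 0.000184), or -0.22 with the GC trend removed (adjusted p = 0.0113). Atp5a1, the alpha subunit of the catalytic head, had 1189 and 1220.3 CPM in wild type and 1074 and 1063 CPM in the cKO-labelled pair. Its change was -0.17 ± 0.051 (adjusted p = 0.0155), lost without wild-type library 2 (0.129). Its partner Atp5b, the catalytic beta subunit, had 1545 and 1563 CPM in wild type and 1500.0 and 1442 CPM in the cKO-labelled pair, a change of -0.08 that was not called (adjusted p = 0.281). The library kit keeps no record of strand, so reads of a gene and of an antisense gene cannot be told apart where exons overlap. Such an overlap exists in the annotation for Atp5d with Cbarp, Cox6c with Vps13b, Cox6a2 with Itgad and Atp5a1 with Haus1. It also exists for Sdhaf1 with E130208F15Rik and for Sdhaf2 with Cpsf7, which had 2353 to 2934 counts per library.

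**Figure D3:**
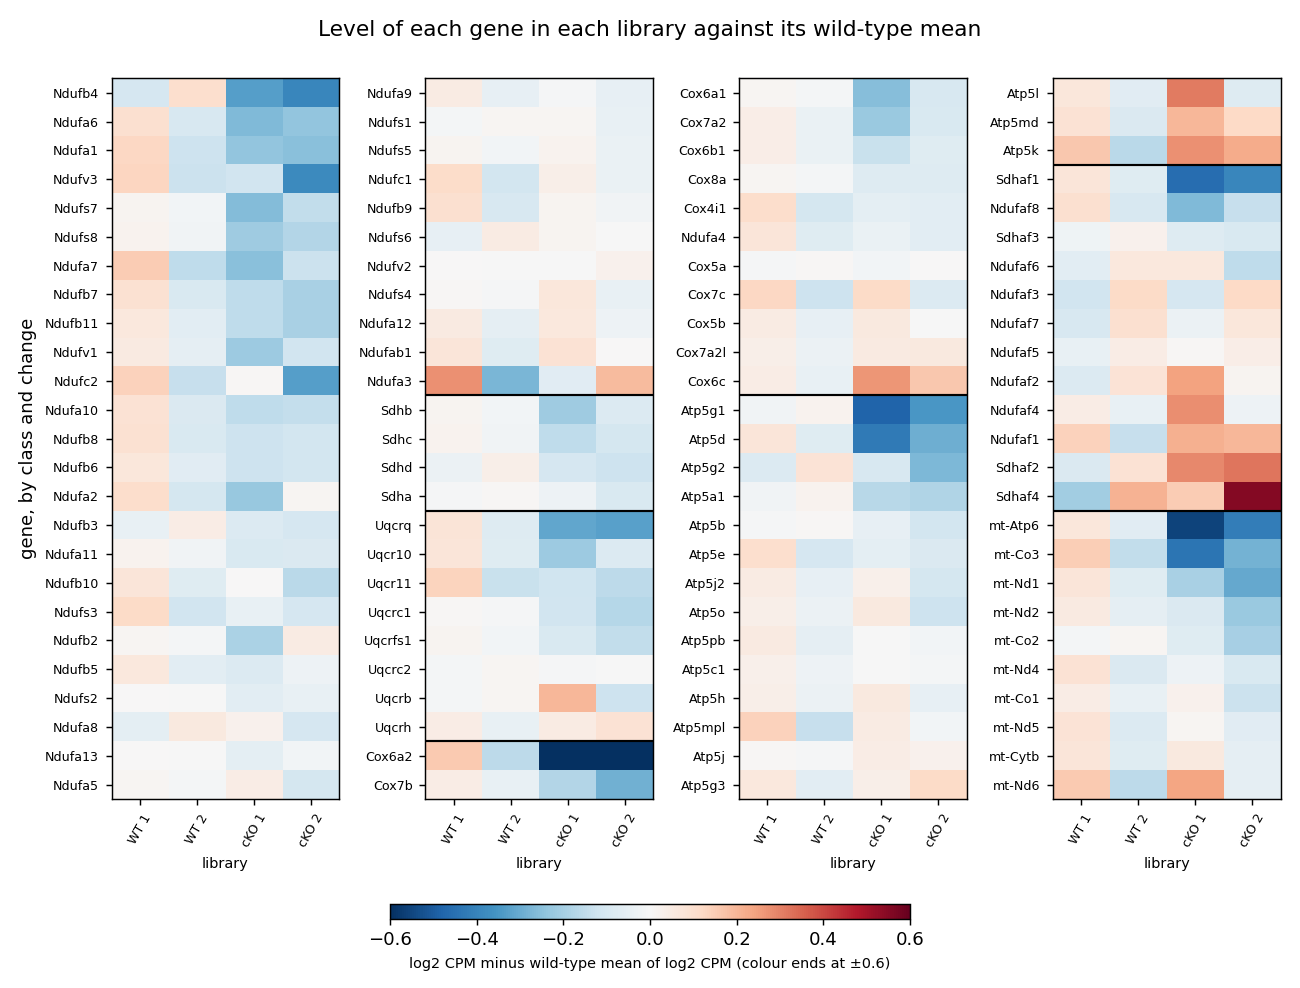
Level of each of the 100 genes in each library, as log2 CPM minus the gene's wild-type mean (colour, from blue for lower to red for higher, with colours ending at ±0.6), ordered by class and change; black lines separate classes. Cox6a2, Uqcrq, Atp5d, Atp5g1 and Sdhaf1 are blue in both cKO-labelled libraries, and Cox6c and Sdhaf2 are red in both.

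Of the 10 mitochondrial mRNAs, mt-Nd1 was called lower and none higher by edgeR (0 at an unadjusted p under 0.05) or DESeq2. The shares over all genes tested by edgeR were 9.54% lower and 12.2% higher. mt-Nd1 (mitochondrial genome, 2751 to 3707) had 2437 and 2205 CPM in wild type and 2024 and 1874 CPM in the cKO-labelled pair. Both cKO-labelled libraries were lower, and the change was -0.25 ± 0.053 (adjusted p = 0.000995). Without wild-type library 1 it was -0.18 and no longer called (adjusted p = 0.0680). mt-Nd2, the next mRNA along the genome and also a membrane subunit of complex I, had 1459 and 1354 CPM in wild type and 1324 and 1205 CPM in the cKO-labelled pair. Its change was -0.15 ± 0.055 (adjusted p = 0.0514), just short of the threshold, and it was called in 6 of 11 alternatives.

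The remaining mitochondrial mRNAs with high counts were not called. mt-Co1 had 8696 and 8150.0 CPM in wild type and 8562 and 7697 CPM in the cKO-labelled pair, which overlapped (change -0.05 ± 0.043, adjusted p = 0.464). mt-Cytb had 3216 and 2906 CPM in wild type and 3183 and 2944 CPM in the cKO-labelled pair (change 0.00 ± 0.050, adjusted p = 0.991). The changes of mt-Nd4 and mt-Nd5, membrane subunits of complex I, were -0.06 (adjusted p = 0.499) and -0.03 (0.762). With the GC trend removed, mt-Co1 (-0.15, adjusted p = 0.00992) and mt-Nd4 (-0.19, 0.0255) were called lower, and without cKO-labelled library 1 mt-Co1 was called lower (-0.13, 0.000679). mt-Nd6, the one mRNA of the other strand, had 222 and 178 CPM in wild type and 234 and 192 CPM in the cKO-labelled pair (change 0.09 ± 0.086, adjusted p = 0.519), and its end overlaps that of mt-Nd5. The copied genes had changes of -0.13 (mt-Co2), -0.36 (mt-Co3) and -0.48 ± 0.23 (mt-Atp6), none of them called, with adjusted p between 0.139 and 0.479.

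Among 8 plus-strand RNAs the changes became less negative in the order of the genes, with the exception of mt-Co1 and mt-Nd4. The copied genes mt-Co2, mt-Atp6 and mt-Co3, which lie between mt-Co1 and mt-Nd4, were left out and break this order, at -0.13, -0.48 and -0.36. mt-Co1 and mt-Nd4 are partly copied, with 39.8% and 61.5% of their 75-base stretches shared, and were kept. The pattern and the 8 RNAs were chosen after the values were seen. The ribosomal RNAs, which lie first, were called lower: mt-Rnr1 by -0.76 ± 0.064 (adjusted p = 2.82e-09) and mt-Rnr2 by -0.31 ± 0.060 (adjusted p = 0.000453). Then came -0.25 for mt-Nd1, -0.15 for mt-Nd2, -0.05 for mt-Co1, -0.06 for mt-Nd4, -0.03 for mt-Nd5 and 0.00 for mt-Cytb. Spearman's rho between change and position was 0.976 over these 8 RNAs, given as a description because they share libraries. It was between 0.929 and 1.0 in the alternatives, and 0.943 over the 6 mRNAs where the ribosomal rows had been removed. The libraries were selected for poly(A), so the level of a ribosomal RNA here is that of its polyadenylated or carried-over part.

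Ratios within a library do not depend on how libraries are scaled. Per read of mt-Cytb, mt-Rnr1 had 0.0663 and 0.0760 reads in wild type and 0.0425 and 0.0410 in the cKO-labelled libraries. mt-Rnr2 had 0.185 and 0.194 in wild type and 0.153 and 0.152 in the cKO-labelled libraries. mt-Nd1 had 0.758 and 0.759 in wild type and 0.636 and 0.637 in the cKO-labelled libraries. The genotypes did not overlap in these 3 ratios, nor in those of mt-Nd2, mt-Co1, mt-Nd4 and mt-Nd5. These separations are not independent, because every ratio is divided by mt-Cytb. Of the plus-strand RNAs compared here, mt-Cytb had the least negative change. How many genes of the whole table would separate in this way was not computed. The mt-Nd6 ratio overlapped, at 0.0690 and 0.0613 in wild type and 0.0736 and 0.0652 in the cKO-labelled libraries. Libraries of the same genotype lay closest together for mt-Nd1. The gap was narrow for mt-Nd5, with 0.626 in wild-type library 2 and 0.622 in cKO-labelled library 2. For mt-Nd2 the ratios were 0.454 and 0.466 in wild type against 0.416 and 0.409, and for mt-Co1 2.70 and 2.80 against 2.69 and 2.61. The cKO-labelled mean over the wild-type mean was 0.587 for mt-Rnr1, 0.805 for mt-Rnr2, 0.839 for mt-Nd1, 0.898 for mt-Nd2, 0.963 for mt-Co1, 0.957 for mt-Nd4 and 0.979 for mt-Nd5. These ratios show unequal change between RNAs of the same genome, not which of them changed.

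**Figure D4:**
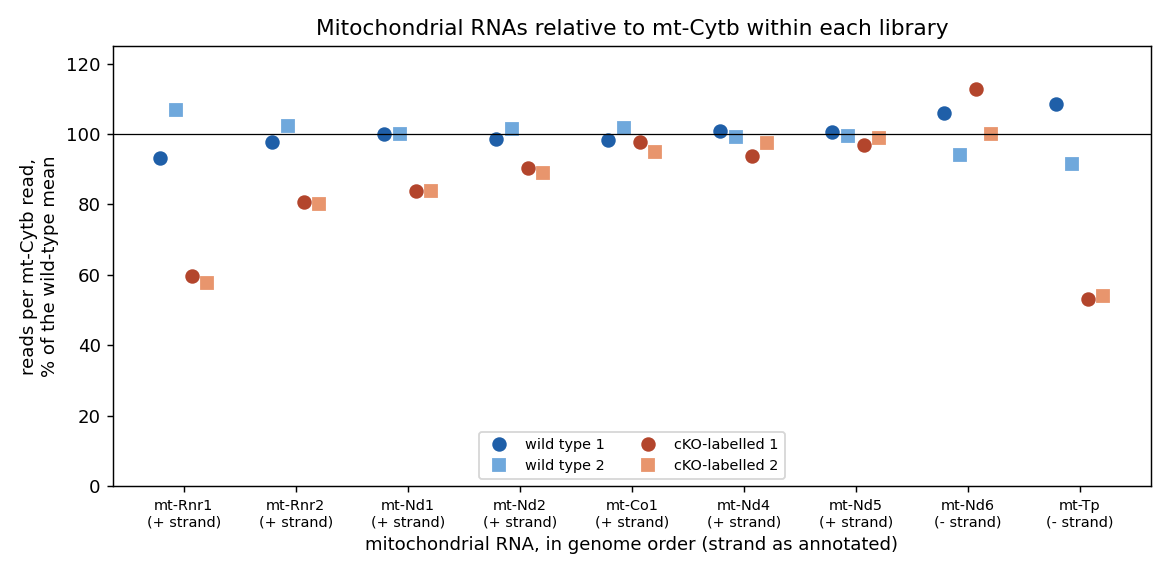
Reads of each mitochondrial RNA per read of mt-Cytb in each library, as a percentage of the wild-type mean, in genome order with the annotated strand. The cKO-labelled libraries (red) lie near 60% at mt-Rnr1 and approach 100% by mt-Nd5, whereas mt-Tp, a tRNA gene of the other strand, lies below 60%.

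The nuclear and mitochondrial genomes were compared by their sums. Summed over the 78 nuclear subunits, the level was 11044 and 10588 CPM in wild type and 10237 and 10119 CPM in the cKO-labelled pair, a ratio of means of 0.941, with no overlap. The summed level of the 10 mitochondrial mRNAs was 19299 and 17709 CPM in wild type and 18401 and 16835 CPM in the cKO-labelled pair, a ratio of 0.952, with overlap. The spread between libraries of 1 genotype was thus larger for the mitochondrial sum than for the nuclear one. Reads of mitochondrial mRNAs per read of nuclear members were 1.71 and 1.63 in wild type and 1.75 and 1.62 in the cKO-labelled libraries, so the balance of the genomes did not separate the genotypes. The median change was -0.07 for the nuclear subunits and -0.10 for the mitochondrial mRNAs, or -0.05 for the latter without mt-Co2, mt-Co3 and mt-Atp6. With the GC trend removed the mitochondrial median was -0.22. The nuclear median was -0.03 without wild-type library 1 and -0.12 without wild-type library 2, and the mitochondrial one was -0.0565 without wild-type library 1, -0.0545 without cKO-labelled library 2 and -0.17 without cKO-labelled library 1. With 2 libraries per genotype an exact two-sided permutation test of a sum cannot go below p = 0.333, so no test is given.

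By complex, the ratio of the summed nuclear levels was 0.940 for complex I, 0.935 for complex II, 0.926 for complex III, 0.961 for complex IV and 0.938 for complex V. In each of these 5 sums both cKO-labelled libraries lay below both wild-type ones. In complex IV the gap was small, with 1897 CPM in wild-type library 2 and 1885 CPM in cKO-labelled library 1. The complex II sum was at 620 and 626 CPM in wild type and 584 and 581 CPM in the cKO-labelled pair. The assembly factors went the other way, at 263 and 272 CPM in wild type and 283 in each cKO-labelled library, a ratio of 1.06.

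**Figure D5:**
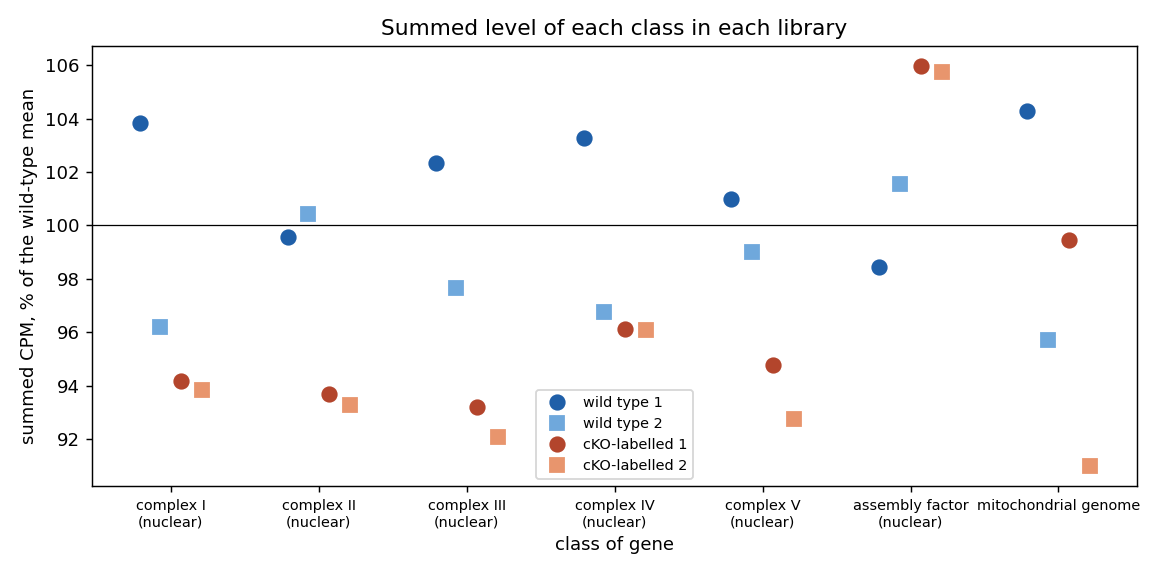
Summed CPM of each class in each library as a percentage of its wild-type mean (blue wild type, red cKO-labelled). Both cKO-labelled libraries lie between 92% and 97% in the nuclear complexes and near 106% in the assembly factors, and the genotypes overlap in the mitochondrial genome.

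The promoters of the nuclear genes were searched for motifs of regulators of respiratory genes. RefSeq promoters (build GRCm38.p6, 250 bases before to 50 bases after the start) were matched for 76 of the 90 nuclear genes, 65 of them subunits, and both strands were searched. The NRF1 motif, spelled by the capitals in the stretches shown, stood in 5 of the 65 (7.69%), against 1.07% of 27025 genes. These 27025 are all genes with a promoter in the set, not only those expressed here, and no comparison with expressed genes was made. The motif AAGATGGCG of YY1 stood in 7 (10.8%, against 1.64%), and CCGGAAGT of GABPA in 5 (7.69%, against 4.31%). No motif contains another. The upstream 150 bases of Atp5k and Atp5g2, subunits of complex V, are shown with the NRF1 motif in capitals to show where it lies, and neither gene was called.
Atp5k, chr5:108434400-108434549, minus strand: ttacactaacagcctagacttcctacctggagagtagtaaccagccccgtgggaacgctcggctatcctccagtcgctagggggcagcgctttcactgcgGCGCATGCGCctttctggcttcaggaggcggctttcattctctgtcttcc
Atp5g2, chr15:102671048-102671197, minus strand: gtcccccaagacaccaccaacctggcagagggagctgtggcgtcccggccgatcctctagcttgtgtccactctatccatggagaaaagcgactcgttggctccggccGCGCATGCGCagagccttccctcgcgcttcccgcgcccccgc
Among subunits, the NRF1 motif was found in Atp5g2, Atp5k, Cox6a1, Ndufa11 and Uqcrc1, of which Cox6a1 was called lower. The YY1 motif was found in Atp5j, Atp5j2, Ndufa9, Ndufc1, Ndufs4, Ndufs6 and Ndufs7, of which Ndufs7 was called lower. The GABPA motif was found in Atp5h, Cox8a, Ndufs3, Uqcr11 and Uqcrh, none of which was called. Of 11 regulators tested, 3 were called higher and 2 lower, beside 12.2% and 9.54% of all genes tested, and their changes ran from -0.41 (Ppargc1b, not called) to 1.71 (Ppargc1a, at most 1.78 CPM). Gabpa, the DNA-binding part of a factor of respiratory genes, rose by 0.25 ± 0.063 (adjusted p = 0.00547), though its exons overlap those of Atp5j on the opposite strand, and Hcfc1, a cofactor of transcription, had a change of -0.23 ± 0.060 (adjusted p = 0.00795).

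Other genes of the pathway changed in both directions. The counts in this paragraph stand beside 12.2% of all genes tested called higher and 9.54% called lower. Cyc1, the cytochrome c1 subunit of complex III, which the name rule leaves out, had a change of -0.27 ± 0.059 (adjusted p = 0.00168). In complex IV assembly 2 of 21 genes were called higher and none lower: Coa5 by 0.37 ± 0.058 (adjusted p = 3.79e-05) and Sco1, a copper carrier, by 0.37 ± 0.11 (0.0158). In complex III assembly 1 of 6 was called lower, Bcs1l, which inserts the iron-sulphur protein (-0.40 ± 0.11, adjusted p = 0.0139). In complex I assembly 1 of 8 was called higher, Tmem70 (0.21). Of 31 genes for copying, transcribing and processing mitochondrial DNA and RNA, 6 were called higher and 5 lower, with a median change of 0.03. The lowest adjusted p were those of Hsd17b10, a subunit of mitochondrial RNase P (-0.47 ± 0.075, adjusted p = 4.52e-05), and Twnk, the helicase of mitochondrial DNA (-0.35 ± 0.085, 0.00411).

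Among neighbouring mitochondrial functions, more genes were called lower than higher. Of 16 citric acid cycle genes 3 were called lower and none higher, with a median change of -0.09, and they included Idh3g, a subunit of isocitrate dehydrogenase (-0.27 ± 0.063, adjusted p = 0.00284). Of 18 genes for import and outer-membrane transport 5 were called lower and 1 higher, but the median was 0.04 and 8 of the 18 changes were negative. Those called lower included Vdac3, a channel of the outer membrane (-0.35 ± 0.065, adjusted p = 0.0003). Of 78 mitochondrial ribosomal protein genes 7 were called lower and none higher, with a median of -0.04, and they included Mrps26 (-0.32 ± 0.074, adjusted p = 0.00259) and Mrpl28 (-0.34 ± 0.086, adjusted p = 0.00538). These counts stand beside 9.54% of all genes tested called lower and 12.2% called higher. The share of ribosomal protein genes called lower was close to that of all genes tested.

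Shared sequence and base composition were set beside the nuclear calls. Both strands were searched, so a gene that overlaps on the opposite strand at the same place counts as another transcript. Among the 52 nuclear genes with no 75-base stretch in other transcripts, 8 were called lower and none higher, with a median change of -0.09. In the 19 with a share above 0 and under 10%, 2 were called higher and 2 lower, with a median of -0.01. In the 19 with a share of at least 10% the median was -0.005, with 1 called lower. Over all genes tested, 9.54% were called lower and 12.2% higher. The median exonic GC content was 51.9% for the nuclear genes called lower and 49.4% for the other nuclear genes, against 37.4% for the mitochondrial mRNAs. The part of GC content and of shared sequence in the changes was not tested beyond the alternative with the GC trend removed.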

How the data were processed

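Per the labels' protocols, RNA was poly(A)-selected and the NEBNext Ultra RNA kit was used for the libraries. The submitters' processing notes name build GRCm38, HTSeq 0.6.1, HISAT2 2.0.1, cutadapt 1.9.1 and bcl2fastq 2.17.1.14, without the role or settings of each, strand setting included. The authors deposited whole-number read counts per gene and, beside them, FPKM values, which equal the deposited count divided by exonic length and library total. FPKM was used only to set levels of different genes side by side.

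Counts were tested with edgeR 4.0.16 in R 4.3.3 (filterByExpr with minimum count 10 and minimum total 15, TMM factors, glmQLFit and glmQLFTest over all 4 libraries), and every adjusted p is a Benjamini-Hochberg value over the 14180 genes tested. CPM values use TMM-scaled library sizes, except marker sums, which use raw totals. The biological coefficient of variation was 6.13%. Scripts were tested on simulated data. DESeq2 1.42.0, RLE factors, other filters, a GC correction, a replicate block and leaving out each library were tried. The labels do not say that libraries came from separate mice or cultures, so p-values measure the spread between these libraries, which may be technical. Shared stretches, GC content and exon overlaps come from GENCODE release M21, and promoters from RefSeq. The YY1 motif was shortened by its last base after a search with the longer form, which fewer promoters held.

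Genes named in full were, in each class, up to 4 called genes with the smallest adjusted p and the one with the highest FPKM, all mitochondrial mRNAs with enough counts, known isoforms, and the extremes of change. The genes and lists were chosen with earlier results of these data known.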

Additional observations from a re-analysis of the deposited data

How the results depend on the processing

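No called gene changed its direction in any of the 11 alternatives, and of the alternatives run on single named genes 355 stayed on the same side of the threshold, 29 lost the call and 12 gained it. Nuclear subunits called lower numbered 10, against 6 with DESeq2 and 5 to 15 when each library was left out. Those called higher numbered 1, against 2 with the GC trend removed and 0 to 3 with a library left out (3 without wild-type library 1, 0 without wild-type library 2 or cKO-labelled library 1). Mitochondrial mRNAs called lower numbered 1, against 2 without a low-count filter, 2 without ribosomal RNA rows and Lars2, 4 with the GC trend removed and 0 to 3 with a library left out (0 without wild-type library 1, 3 without cKO-labelled library 1). None was called higher, against 0 to 1 with a library left out, mt-Nd6 without wild-type library 1. Assembly factors had 1 called lower, against 0 with DESeq2 and 0 to 1 with a library left out, and 1 called higher, against 0 to 1. With the GC trend removed the mitochondrial median was -0.22 in place of -0.10. The assembly-factor median, 0.02, ran from -0.0543 (without wild-type library 1) to 0.0728 (without wild-type library 2). The cause of these differences was not tested. Samples with the same replicate number did not deviate together (correlation -0.03 over 14180 genes). From 2 pairs of libraries this cannot decide whether the numbers pair the samples, and the labels do not say. With the replicate number as a block, 16 nuclear subunits and 2 mitochondrial mRNAs were called lower. Over all genes, edgeR called 1727 higher and 1353 lower, and DESeq2 1235 and 795. With the GC trend removed 61.5% of calls were higher, against 56.1%. With 2 libraries per genotype, small changes such as those of complex II could not be resolved.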

Other observations

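Ndufb1-ps, left out by its suffix, was counted 1071 and 1077 times in wild type and 1127 and 1064 in the cKO-labelled libraries (log2 change 0.08 ± 0.074, adjusted p = 0.504 by edgeR). The tRNA row mt-Tp, chosen after its values were seen, was counted 1717 and 1492 times in wild type and 872 and 793 in the cKO-labelled libraries, a log2 change of -0.90 ± 0.092 (adjusted p = 9.00e-08), and was called in 11 of 11 alternatives.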
